A study of Mus musculus with 4 samples.

Results

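The genes described here carry antigen presentation by MHC class II molecules, and they were chosen by symbol as 10 named genes of the 55414 in the deposited table. They are the classical class II chain genes H2-Aa, H2-Ab1 and H2-Eb1, the peptide exchange genes H2-DMa, H2-DMb1, H2-DMb2 and H2-Oa, the invariant chain gene Cd74, the lysosomal thiol reductase gene Ifi30 and Ciita, the gene of the class II transactivator. RNA was sequenced from mouse peritoneal macrophages, phagocytes of the abdominal cavity, that had been kept for 24 h in complete medium, the vehicle, or under LUP (0.5 mg/ml). Each group had 2 libraries, called LUP 1 and 2 and vehicle 1 and 2 here. The labels do not spell out LUP and give no strain, sex or age, nor do they tell whether replicates are different mice, cultures or repeats of one, so p-values measure only the spread between these libraries, which may be technical.

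MHC class II molecules are pairs of an alpha and a beta chain that show peptides from engulfed material to CD4+ T cells. The new pairs bind the invariant chain, which blocks the peptide groove and directs them to endosomes, where proteases cut it down to a short fragment. H2-DM, a dimer of H2-DMa and an H2-DMb chain, exchanges that fragment for antigen peptides, and H2-O, which contains H2-Oa, restrains H2-DM. Ciita does not bind DNA itself but is recruited by the factors RFX, CREB and NF-Y, which sit on the X and Y boxes shared by class II promoters. Macrophages are known to raise Ciita, and with it the class II genes, in response to interferon gamma.

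The libraries held 19949818 to 23617618 expected counts, and 13355 genes were tested. The macrophage markers Lyz2 (lysozyme), Cd68, Csf1r, Adgre1 (F4/80), Itgam, Cd14, Mertk and Fcgr1 were all detected, Lyz2 at 15652 to 22379 TPM, a level per transcript length that is scaled to the same total in each library. All fold changes below are LUP over vehicle from edgeR's quasi-likelihood test on counts, and called means an adjusted p under 0.05. Of all tested genes 50.8% were called, 27.1% higher and 23.7% lower with LUP (3621 and 3164 genes; after quantile normalization 2764 and 3918). In these bulk libraries, fewer cells of a type and less RNA per cell cannot be told apart.

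The class II genes did not move in one direction. The alpha chain gene H2-Aa and the beta chain gene H2-Eb1 had log2 changes of -0.66 and -0.91, and the invariant chain gene Cd74 one of -0.22, all called lower. H2-DMa rose 1.55-fold and Ifi30 rose 1.26-fold. H2-Ab1 and H2-DMb1 were called higher by 1.13-fold and 1.2-fold, H2-Oa was higher from a level of almost no reads, and Ciita and H2-DMb2 were not called. In all, 5 of the 10 genes were called higher and 3 lower, beside 27.1% and 23.7% of all tested genes. The median log2 change of the 10 was 0.28, beside 0.00 for all tested genes. H2-Oa and H2-DMb2 passed the filter on low counts only with the help of their LUP libraries. Of the 8 genes that passed in both vehicle libraries, 4 were called higher, 3 lower and 1 was not called. The 3 falls, H2-DMa and Ifi30 were called in all 11 alternative fits. The number called higher was 3 with DESeq2 and after quantile normalization, 2 with limma on log2(TPM + 1) and 2 without LUP replicate 2.

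**Figure D1:**
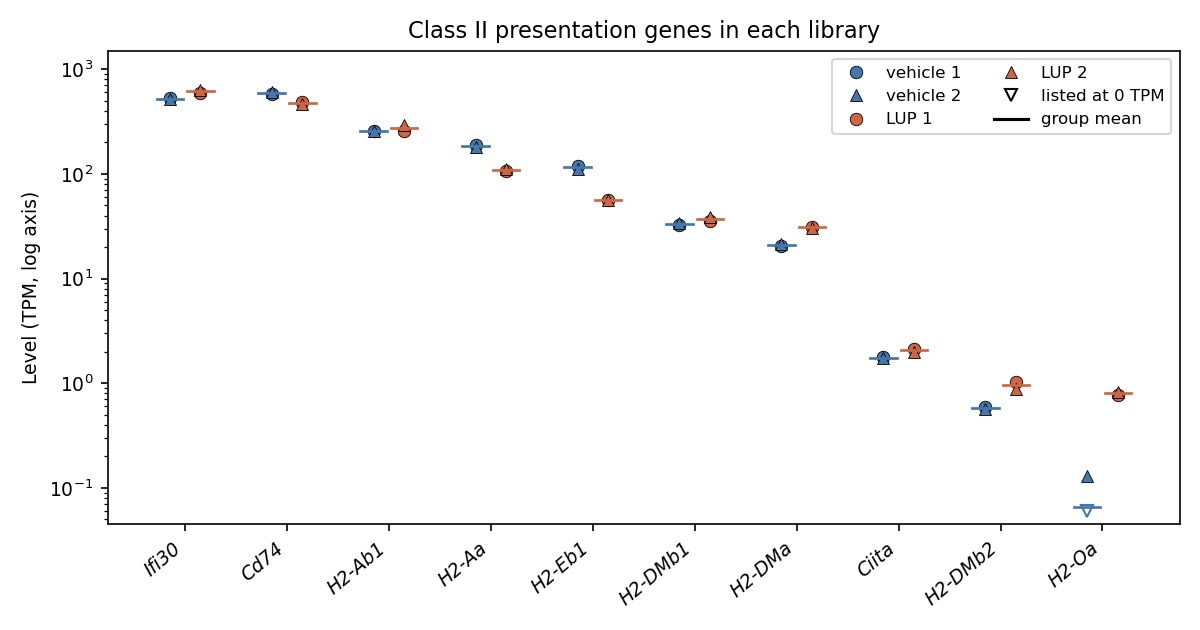
Level of each class II presentation gene in TPM on a log axis, with 1 point per library (circle, replicate 1; triangle, replicate 2), a line at each group mean, and an open triangle where a library is listed at 0. Cd74 and Ifi30 lie at 469 to 633 TPM in all 4 libraries, while Ciita, H2-DMb2 and H2-Oa lie below 2.2 TPM.

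On the TPM scale, which is per length and allows genes to be compared, the levels spanned several orders of magnitude. With vehicle the order was Cd74 (594 ± 14.2 TPM, mean ± SD, n = 2 here and below), Ifi30 (524 ± 8.28), H2-Ab1 (256.5 ± 0.7), H2-Aa (185 ± 4.69), H2-Eb1 (115 ± 5.69), H2-DMb1 (33.1 ± 0.926), H2-DMa (20.8 ± 0.636), Ciita (1.76 ± 0.0141), H2-DMb2 (0.58 ± 0.0141) and H2-Oa (0.065 ± 0.0919). With LUP the order was the same except that Ifi30, at 612 ± 29.3 TPM, stood above Cd74, at 477 ± 11.3 TPM. In neither group did the libraries of genes next to each other in the order overlap. By TPM rank among all 55414 genes, Cd74 was 216th and 228th in the vehicle libraries and 291st and 299th with LUP. Ifi30 ranked 250th and 242nd with vehicle and 245th and 223rd with LUP.

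The promoters of the class II chain genes are shown because class II genes are known to share control elements, while the RNA levels here went different ways. RefSeq windows of 300 bases around the gene start (build GRCm38.p6, from 250 bases before it) were matched by symbol for 7 of the 10 genes. These 7 genes had 8 windows. H2-Ab1 and Ciita had no entry, and Cd74 was left out of the search. The stretches below run from 110 to 31 bases before the start, 5′ to 3′ on the strand of the gene. Capitals mark the letters TGATTGG, the core of the Y box that NF-Y binds with its flank, and AGNAAC, a part of the X box that RFX binds, each searched on both strands.
H2-Aa (chr17:34287854-34287933, minus strand): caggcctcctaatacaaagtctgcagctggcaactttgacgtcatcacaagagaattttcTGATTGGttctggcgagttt
H2-Eb1 (chr17:34305757-34305836, plus strand): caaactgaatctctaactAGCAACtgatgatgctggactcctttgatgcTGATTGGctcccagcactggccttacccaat
H2-DMb1 (chr17:34153081-34153160, plus strand): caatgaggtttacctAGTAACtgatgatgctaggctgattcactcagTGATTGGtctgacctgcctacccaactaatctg
H2-DMb2 (chr17:34145139-34145218, plus strand): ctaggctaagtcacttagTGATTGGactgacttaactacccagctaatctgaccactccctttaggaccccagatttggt
H2-Oa (chr17:34092269-34092348, plus strand): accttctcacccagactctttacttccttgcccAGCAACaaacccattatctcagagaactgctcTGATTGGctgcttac

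TGATTGG was found in 5 of the 8 windows searched, in these 5 genes, and in 7.82% of all 32851 RefSeq windows of the same length. Only windows that held it were printed, and those of H2-DMa and Ifi30, also searched, did not hold it. Counted from 0 at the first base of the gene, the Y box letters began at -50 in H2-Aa, -61 in H2-Eb1, -63 in H2-DMb1, -92 in H2-DMb2 and -45 in H2-Oa. AGNAAC alone is common, with 48.1% of all windows holding it. AGNAAC followed after 10 to 40 bases by TGATTGG stood in H2-Eb1, H2-DMb1 and H2-Oa and in 0.31% of all windows. The H2-Aa stretch holds GGCAAC before its Y box letters, which differs from AGNAAC in the first letter. A window without a match may therefore still hold an X box. The gamma activated site TTCNNNGAA, an element of interferon gamma target genes, was found in 8.3% of all windows. Among the class II genes searched, it was found in that of H2-DMb2. H2-Eb1 and H2-DMb1 carry the same pair of letters at nearly the same distance from the start. Their RNA was called in opposite directions, though the H2-DMb1 call was lost in some alternative fits, given below. The part of these letters in the RNA changes was not tested. A match describes letters only, and these data hold no measurement of factor binding.

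The classical alpha and beta chain genes went different ways. H2-Aa, the alpha chain of the molecule I-A, stood at 189 and 182 TPM in vehicle 1 and 2 and at 107 and 111 TPM in LUP 1 and 2. Both LUP libraries lay far below both vehicle libraries, a log2 change of -0.66 (SE 0.0517, adjusted p = 2.95e-09). H2-Eb1, the beta chain of the molecule I-E, stood at 119 and 111 TPM with vehicle and 55.8 and 56.5 TPM with LUP. This was the largest fall of the 10 genes in the test, to 0.532 of the vehicle level (log2 change -0.91, SE 0.0712, adjusted p = 2.71e-09). H2-Ab1, the beta chain that pairs with H2-Aa, had 256 and 257 TPM with vehicle and 255 and 296 TPM with LUP. LUP 1 lay just below the vehicle libraries and LUP 2 above them, so that the groups overlapped, and the test called a log2 change of 0.18 (SE 0.0554, adjusted p = 0.0105). Without LUP replicate 2 the H2-Ab1 change was 0.07 (adjusted p = 0.232), and without LUP replicate 1 it was 0.29 (adjusted p = 8.41e-08). After quantile normalization it was 0.06 and with limma on log2(TPM + 1) 0.10 (adjusted p = 0.467 and 0.358; range over 11 alternatives 8.41e-08 to 0.467). The call of H2-Ab1 therefore rests on LUP 2. Its log2 change was above 0, and that of H2-Aa below 0, in all 11 alternatives.

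**Figure D2:**
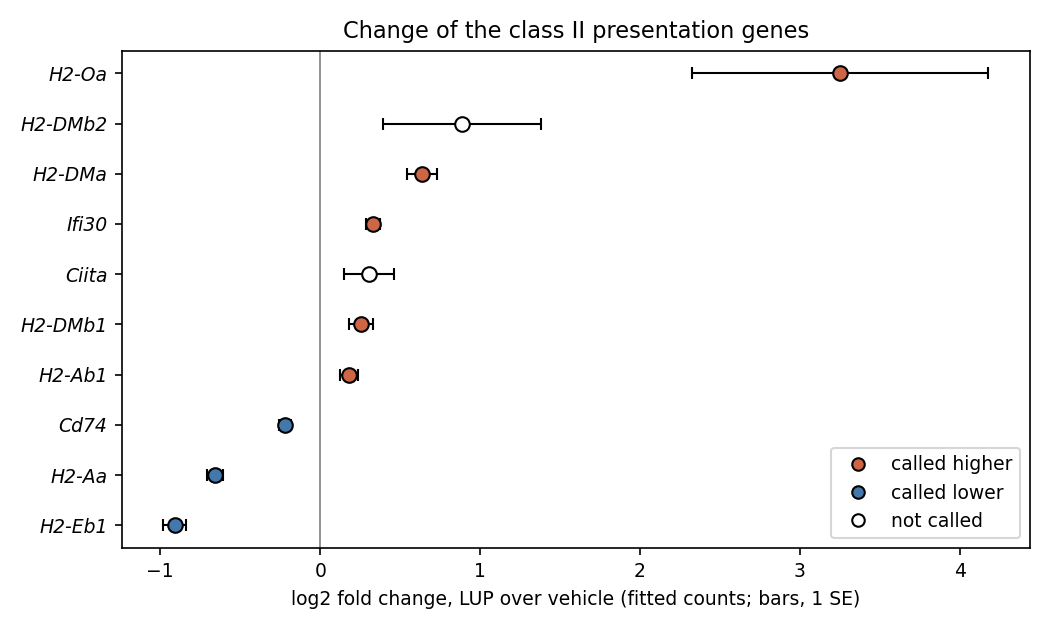
Fitted log2 fold change of each class II presentation gene, LUP over vehicle, with bars of 1 SE (n = 2 libraries per group) and the fill giving the call. H2-Eb1, H2-Aa and Cd74 lie below 0, 5 genes were called above 0, and the wide bar of H2-Oa goes with 2 reads in the vehicle libraries.

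Within each library, the ratio of H2-Aa to H2-Ab1 in TPM was 0.736 and 0.708 with vehicle and 0.421 and 0.375 with LUP. The ratio of H2-Eb1 to H2-Ab1 went from 0.466 and 0.433 to 0.218 and 0.191. H2-Eb1 also lay lower against H2-Aa, with 0.633 and 0.611 in the vehicle libraries and 0.519 and 0.509 in the LUP libraries. None of these 3 ratios overlapped between the groups. With 2 libraries against 2 no exact permutation test can reach the threshold, so ratios are given without a test. The TPM of the 3 chain genes together was 564 and 550 with vehicle and 419 and 464 with LUP. H2-Ab1 made up 45.4% and 46.7% of that sum with vehicle and 61.0% and 63.9% with LUP.

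**Figure D3:**
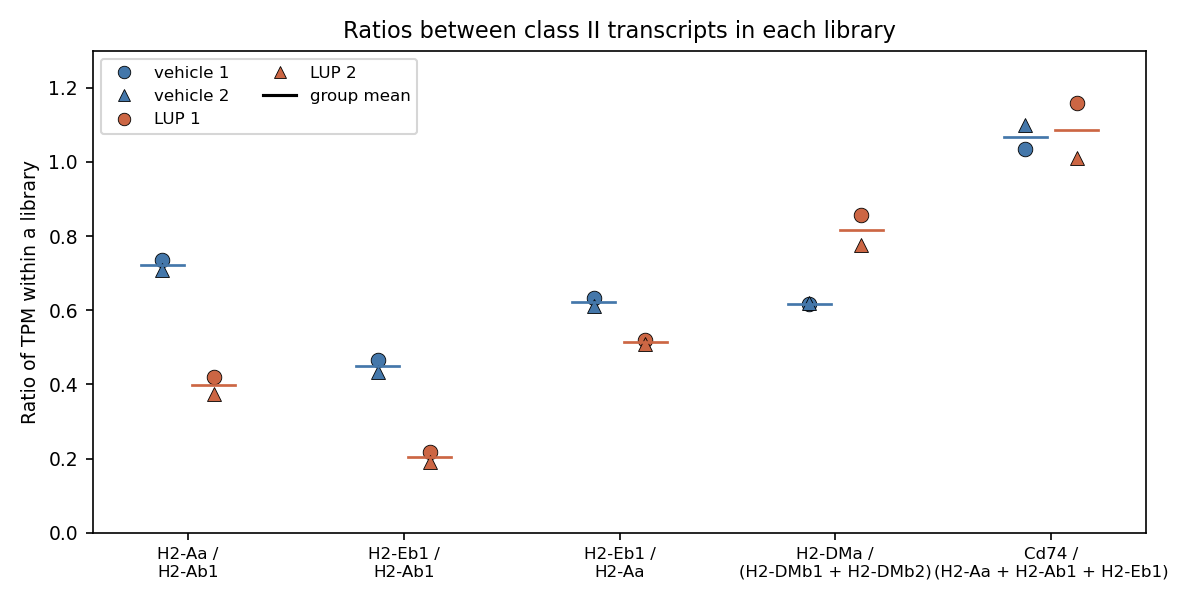
Ratios of TPM between class II transcripts within each library, with 1 point per library and a line at each group mean. The 3 ratios between classical chains are lower in both LUP libraries, the ratio of H2-DMa to its partner chains is higher, and the ratio of Cd74 to the 3 chains overlaps between the groups.

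The partner chain of H2-Eb1 was almost absent in every library. H2-Ea, the alpha chain gene of I-E, had 0 reads in vehicle 1 and in both LUP libraries and 9 in vehicle 2, and was below the filter. A count of 0 allows up to 3 counts in a library, for counting error only. The other class II genes outside the 10 were near the floor as well. H2-Ob, the beta chain of H2-O, had 2 and 6 reads with vehicle and 16 and 4 with LUP, and H2-Eb2, a beta chain gene next to H2-Eb1, had 2 and 2 with vehicle and 1 and 1 with LUP.

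The fall of Cd74 was small but apart from the replicate spread. Its level was 584 and 604 TPM with vehicle and 485 and 469 TPM with LUP, without overlap, a log2 change of -0.22 (SE 0.0367, adjusted p = 5.51e-05). Set against the sum of the 3 classical chain genes, Cd74 stood at 1.04 and 1.1 with vehicle and 1.16 and 1.01 with LUP, values that overlap. Its counts were whole in all 4 libraries, so no reads were shared out with another gene.

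The genes that load peptide went up or were not called. H2-DMa had 20.4 and 21.3 TPM with vehicle and 31.3 and 30.4 TPM with LUP, a log2 change of 0.63 (SE 0.0932, adjusted p = 1.27e-05). H2-DMb1, the main beta chain of H2-DM in these libraries, had 32.5 and 33.8 TPM with vehicle and 35.5 and 38.3 TPM with LUP. Its groups did not overlap, and the log2 change was 0.26 (SE 0.075, adjusted p = 0.00766). That call was lost with DESeq2 (0.0887), after quantile normalization (0.153), with limma on log2(TPM + 1) and log2(TPM + 0.1) (0.149 and 0.15) and without LUP replicate 2 (0.103). Over its alternatives the adjusted p ran from 0.00049 to 0.153. H2-DMb2, the neighbouring copy, had 9.34 and 10.19 expected counts with vehicle and 19.65 and 16.64 with LUP. Its log2 change of 0.89 (SE 0.493, adjusted p = 0.145) was not called.

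Reads are split by estimation between the similar genes H2-DMb1 and H2-DMb2, whose counts are not whole, so the division between them is uncertain. Together they held 513 and 613 expected counts with vehicle and 693 and 723 with LUP. H2-DMb2 made up 1.78% and 1.66% of their joint TPM with vehicle and 2.82% and 2.27% with LUP. The ratio of H2-DMa to both beta chain genes was 0.616 and 0.619 with vehicle and 0.857 and 0.775 with LUP, without overlap. Against the 3 classical chain genes, H2-DMa was at a TPM ratio of 0.0362 and 0.0387 with vehicle and 0.0748 and 0.0656 with LUP. In the GENCODE annotation, matched by Ensembl ID, H2-DMa overlaps Brd2, a chromatin reader gene on the opposite strand. Brd2 had 5365 and 6294 counts with vehicle and 7047 and 6383 with LUP (log2 change 0.14, adjusted p = 0.00488). The Brd2 call was lost without vehicle replicate 2 (0.0562), after quantile normalization (0.271) and with limma on TPM (0.426 and 0.43), from 0.00037 to 0.43 over its alternatives. The labels do not say if the library kit was stranded, so reads of H2-DMa and Brd2 in the overlap cannot be told apart.

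H2-Oa, the alpha chain of the H2-DM inhibitor, was barely detected. It had 0 and 2 reads in the vehicle libraries and 11 in each LUP library. Scaled to library totals, the ratio was 10.3 with an exact 95% interval of 2.53 to 90.3, which covers counting error only. The adjusted p was 0.00659, and the call was lost with DESeq2 (0.059) and without vehicle replicate 1 (0.0917). The 6 alternatives that tested it gave 0.00528 to 0.0917.

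Ifi30, whose product reduces disulphide bonds of proteins taken up for presentation, was the most abundant class II presentation gene with LUP. Its level was 529.5 and 518 TPM with vehicle and 592 and 633 TPM with LUP, without overlap. The log2 change was 0.33 (SE 0.0453, adjusted p = 5.63e-06). Together the 10 genes summed to 1733 and 1730 TPM with vehicle and 1566 and 1638 TPM with LUP.

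The transactivator gene was low in both groups. Ciita had 112 and 144 reads with vehicle and 180 and 150 with LUP, or 1.77, 1.75, 2.14 and 1.99 TPM in that order. Both LUP libraries lay above both vehicle libraries, but the log2 change of 0.30 (SE 0.155, adjusted p = 0.112) missed the threshold, as it did in all 10 alternatives that tested it. Over all 10 genes, 9 had TPM values without overlap between the groups, against 69.9% of all tested genes. H2-Ab1 was the gene that overlapped. The 9 include H2-Oa and H2-DMb2, which passed the filter on low counts only with the help of their LUP libraries. In GENCODE, Ciita overlaps Dexi on the opposite strand, which had 101 and 127 counts with vehicle and 137 and 131 with LUP.

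Genes known to act upstream of Ciita in the interferon gamma response, or to activate it, went both ways. Of 11 such genes, 6 were higher and 3 lower (median log2 change 0.20), beside 27.1% and 23.7% of all tested genes. With both limma fits on TPM 3 were higher and 3 lower, as Irf2, Jak1 and Ifngr2 were not called higher there. The 3 lower were not all the same genes. Usf1 was called lower only in some alternatives, these fits among them (adjusted p = 0.0338 and 0.035). Irf4, called lower in the main test at 0.31 to 0.83 TPM, was below their filter of 1 TPM. The receptor subunit gene Ifngr2 and the kinase gene Jak1 rose 1.17-fold and 1.15-fold, calls that limma on log2(TPM + 1) did not make (adjusted p = 0.207 and 0.22). Irf8, a factor of myeloid cells, had a log2 change of -0.24, from 114 and 116 TPM to 87.5 and 91.2 TPM.

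Among 8 genes known to restrain this response, 3 of the 7 tested were higher (median 0.18), beside 27.1% of all tested genes. Socs1, an inhibitor of Janus kinases, rose 11.7-fold from a low level, 24 and 17 reads with vehicle and 236 and 267 with LUP. Its relative Socs3 rose 7.12-fold, from 9.18 and 8.7 TPM to 61.9 and 55.0 TPM. Tgfb1, a cytokine gene, rose 1.15-fold, which limma on log2(TPM + 1) did not call (adjusted p = 0.103).

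Of 12 genes of factors and coactivators that occupy class II promoters, 5 were called, beside 50.8% of all tested genes. Of these 12 genes, 4 were higher and 1 lower (median 0.08), beside 27.1% and 23.7% of all tested genes. Nfya, the subunit of NF-Y that contacts the Y box, fell by 0.50 on the log2 scale, from 83.3 and 87.1 TPM to 60.1 and 53.8 TPM (adjusted p = 1.2e-08). The NF-Y subunit gene Nfyc and the coactivator genes Carm1 and Smarca4 were called higher by 1.21-fold, 1.22-fold and 1.15-fold. With limma on log2(TPM + 1) these 3 were not called (adjusted p = 0.963, 0.176 and 0.296), and Nfyc was not called with DESeq2 or after quantile normalization either (0.0613 and 0.0973). Under alternative fits the counts of this list ran from 1 to 4 higher and from 1 to 4 lower, with 3 lower without LUP replicate 1.

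**Figure D4:**
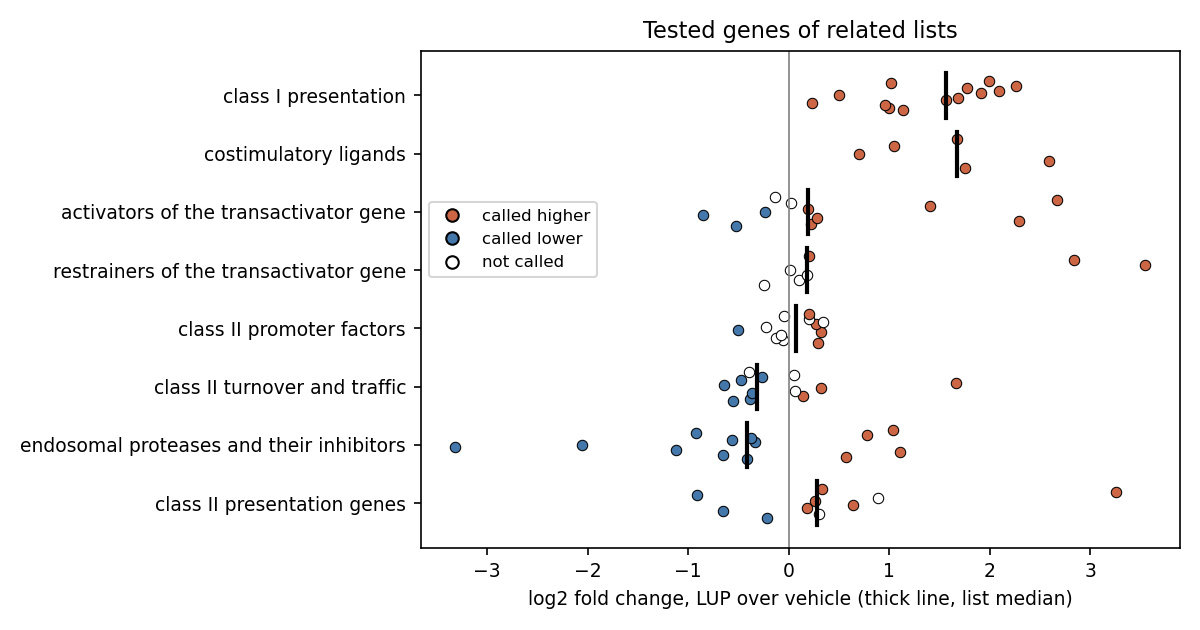
Fitted log2 fold change, LUP over vehicle, of every tested gene of 7 related lists and of the class II presentation genes, with fill giving the call and a thick line at the median. The class I and costimulatory lists lie wholly above 0, whereas the class II presentation genes lie on both sides of it.

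Endosomal proteases, which cut antigens and the invariant chain, were mostly lower. Of 13 genes of proteases and their inhibitors, 9 were lower and 4 higher (median -0.42), beside 23.7% and 27.1% of all tested genes. Ctss, cathepsin S, which trims the invariant chain, and Ctsl, cathepsin L, had log2 changes of -0.38 and -0.57. After quantile normalization the Ctss change was -0.05 (adjusted p = 0.143). Ctsd and Ctsb, lysosomal cathepsins D and B, had log2 changes of -1.12 and -0.66. The genes called higher were Ctsz, Ctsc, the inhibitor Cstb and Sppl2a, which encodes the membrane protease that clears the last fragment of the invariant chain. Sppl2a went from 37.6 and 45.5 TPM to 83.8 and 81.2 TPM, a log2 change of 1.03, and was named after its value was seen.

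Genes of class II traffic and turnover were lower in 6 and higher in 3 of 12 tested cases (median -0.32). Of all tested genes 23.7% were lower and 27.1% higher. The tetraspanin genes Cd63, Cd9 and Cd37 had log2 changes of -0.37, -0.64 and -0.39. Cd53, another tetraspanin gene, was called higher by 1.1-fold, a direction that quantile normalization turned (log2 change -0.05). Marchf1, the ubiquitin ligase that removes class II from the cell surface, went from 10.1 and 10.5 TPM to 33.0 and 27.9 TPM. This was a 3.17-fold rise (adjusted p = 2.07e-13), and the gene was named after its value was seen. Its more abundant relative Marchf8, of the same list, went from 44.11 and 40.25 TPM with vehicle to 28.53 and 26.69 TPM with LUP. Marchf8 was called lower (log2 change -0.47, adjusted p = 1.9e-07).

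Class I presentation and costimulatory genes went up together. All 13 class I presentation genes were called higher (median 1.56), beside 27.1% of all tested genes. Among the 13 were the light chain B2m (2.2-fold) and the heavy chains H2-K1 (2.95-fold) and H2-D1 (1.17-fold). Set against the 3 class II chain genes in TPM, H2-K1 stood at 3.59 and 3.66 with vehicle and 13.4 and 12.1 with LUP. Nlrc5, the class I transactivator and a relative of Ciita, was at a TPM ratio to Ciita of 6.79 and 8.21 with vehicle and 19.6 and 20.1 with LUP. Of the costimulatory and checkpoint ligands, which tune the T cell that meets the peptide, 5 of 5 tested genes were higher (median 1.67), with Cd40 up 5.99-fold, Cd274 3.38-fold, Cd86 2.07-fold and Cd80 1.62-fold.

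Genes with rises and falls lay side by side on the chromosome. On chromosome 17, 7 of the 10 genes lie in one region, in the order H2-Oa, Brd2, H2-DMa, H2-DMb2, H2-DMb1, Psmb9, Tap1, Psmb8, Tap2, H2-Ob, H2-Ab1, H2-Aa, H2-Eb1 of protein-coding RefSeq genes. The 4 genes between H2-DMb1 and H2-Ob serve class I presentation, as immunoproteasome subunits (Psmb9, Psmb8) or as the peptide transporter (Tap1, Tap2). They rose by log2 changes of 1.77, 2.26, 2.09 and 1.02. Of the 6 genes that are not among the 10, 5 were called higher, beside 27.1% of all tested genes, and H2-Ob was not tested. The adjacent genes H2-Aa and H2-Eb1 at the end of this order fell.

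**Figure D5:**
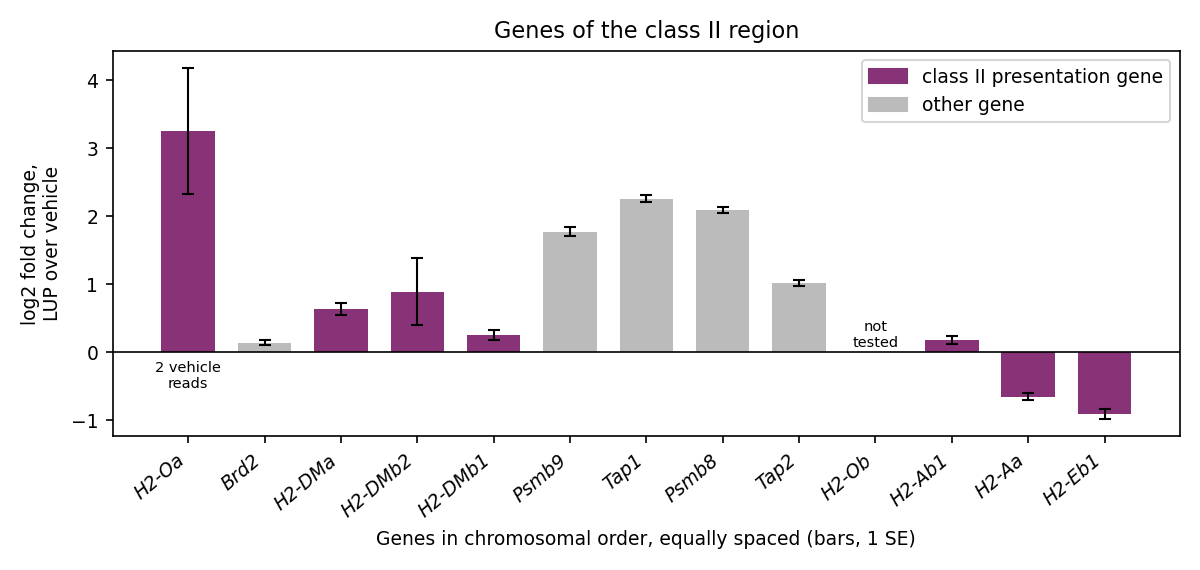
Fitted log2 fold change, LUP over vehicle, of the 13 genes of the class II region in chromosomal order, with bars of 1 SE. Psmb9, Tap1, Psmb8 and Tap2 rose between the H2-DM genes and the classical chain genes, H2-Aa and H2-Eb1 fell, and the H2-Oa bar rests on 2 vehicle reads.

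Other cells of the abdominal cavity also carry class II, and their markers are given beside the falls of H2-Aa, H2-Eb1 and Cd74. Of the 8 macrophage markers of the main cell type, 5 were called higher and 2 lower. Beside this and the marker counts below, 27.1% of all tested genes were higher and 23.7% lower. Adgre1 (F4/80) rose 4.86-fold, Fcgr1 3.35-fold, Cd14 3.34-fold, Csf1r 2.03-fold and Itgam 1.94-fold, and Mertk fell by 0.44 on the log2 scale. Lyz2 had a log2 change of -0.39, which quantile normalization turned to 0.13 (adjusted p = 4.04e-06), and Cd68 was not called. On the TPM scale Lyz2, the most abundant, went from 22379 and 22088 to 15652 and 15999. Small peritoneal macrophages, which are known for high class II, were marked by 7 genes, of which 4 of 5 tested were lower, with 81.4 and 85.1 TPM in sum with vehicle and 53.8 and 60.9 TPM with LUP. Retnla, Clec10a, Ccr2 and Cx3cr1 had log2 changes of -0.85, -1.20, -2.99 and -1.69, and the most abundant marker, Folr2, was not called. Large peritoneal macrophage markers were higher in 2 and lower in 3 of 8 tested cases, with sums of 179 and 186 TPM with vehicle and 92.3 and 88.8 TPM with LUP, nearly all of it Cd93 (162 and 168 TPM with vehicle, 74.9 and 75.1 TPM with LUP). Cd93 and Naip1 had log2 changes of -1.04 and -0.50, and Gata6, the factor of the large subset, went from 104 and 124 reads to 66 and 53, also called lower. Cxcl13, with 6 and 19 reads with vehicle and 41 and 27 with LUP, was called higher, and this call was lost without LUP replicate 1 (adjusted p = 0.135), without vehicle replicate 1 (0.198), with DESeq2 (0.0811) and with limma on log2(TPM + 1) and log2(TPM + 0.1) (0.0898 and 0.11). Timd4, a receptor for dying cells, had 0 and 1 reads with vehicle and 28 and 20 with LUP, and was called higher (adjusted p = 4.45e-05). It passed the filter on low counts only through the LUP libraries, and it was named after its values were seen.

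B cell markers summed to 154 and 154 TPM with vehicle and 80.2 and 84.0 TPM with LUP, nearly all of it Cd22, which fell by 0.82 on the log2 scale. The defining B cell genes were near the floor, with Cd79a at 0.21 to 0.6 TPM and Vpreb3 at 0 reads in every library. Cd79b, below the filter on low counts, stood at 0.95 and 0.64 TPM with vehicle (12 and 10 reads). With LUP it stood at 0.1 and 0.2 TPM (2 and 3 reads). Without that filter 2 B cell markers were called lower, against 1 with it. Dendritic cell markers summed to 130 and 125 TPM with vehicle and 67.9 and 71.7 TPM with LUP, nearly all of it the integrin gene Itgax, which fell by 0.92. Flt3, Xcr1 and Siglech were at or below 0.07 TPM in every library. Batf3 stood at 3.64 to 5.84 TPM, Clec9a at 0.24 to 0.66 TPM and Zbtb46 at 0.26 to 0.29 TPM, none of them called. Below the filter, Cd209a had 6 and 5 reads with vehicle and 0 in both LUP libraries. Dpp4, also below it, had 1 and 5 reads with vehicle and 10 and 4 with LUP. Ccr7, a chemokine receptor of migrating cells, was called higher, from 10 and 13 to 111 and 123 reads. Of 10 dendritic cell markers 5 were tested, 1 higher and 1 lower. Among 5 mesothelial markers 3 were lower (Lrrn4, Upk3b and Krt19), with sums of 7.19 and 8.58 TPM with vehicle and 3.87 and 3.42 TPM with LUP. Krt19 was not called without LUP replicate 2 or with DESeq2 (adjusted p = 0.068 and 0.0541), and under both limma fits, which tested Lrrn4 but neither Upk3b nor Krt19, the mesothelial count was 1 lower. None of these markers reached the stricter 5 TPM filter, which left 0 lower. Mast cell and eosinophil markers summed to 10.4 and 8.59 TPM and to 4.37 and 2.97 TPM, with 1 of 4 tested genes lower (Siglecf); Tpsb2 and Cma1 were not called, and Epx and Prg2 had 0 reads. Of the T and NK cell markers, 34 and 27 reads were found with LUP and 7 and 10 with vehicle, with Cd3g at 13 and 8 and Cd3e at 2 and 5 reads with LUP. All 8 T and NK cell markers were below the filter on low counts, and Cd3g, a T cell receptor subunit gene, was called higher without LUP replicate 2, without vehicle replicate 1 and with no such filter. Neutrophil markers had 23 and 25 reads with LUP and 2 and 8 with vehicle. Camp made up 22 and 18 of the former and was called higher against 0 reads in both vehicle libraries, having passed the filter only through the LUP libraries; Ltf made up all of the latter, Retnlg had 1 and 2 reads with LUP, and Ly6g and Mpo had 0 reads. The part of these cell types in the class II changes was not tested.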

How the data were processed

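The expected counts per gene and library were estimated by the authors and deposited without scaling between libraries. The TPM values per library were computed and deposited by the authors. The tools fastp, HISAT2, StringTie and RSEM are listed in the submitters' processing notes, without versions or roles. No source used here names the build. The authors also deposited a fold (a ratio), its log2 and p-values and adjusted p-values; these were not used, as their fold runs vehicle over LUP in all 1217 genes checked (adjusted p under 0.05 and log2 fold of at least 1 in size).

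Expected counts were rounded and tested with edgeR 4.0.16 in R 4.3.3 (quasi-likelihood, TMM scaling, default filter with a minimum count of 10, no term but treatment). P-values were adjusted by Benjamini-Hochberg over all 13355 genes tested. The SE of a log2 change was derived from the F statistic. DESeq2 1.42.0, limma 3.58.1 (genes of at least 1 TPM in 2 libraries) and the other alternatives are given in the closing section. The test was checked on simulated counts. Depth limits the low genes most, where 3 counts were taken as the floor.

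The 10 genes and all lists were chosen with earlier results of these data known. Of each list, up to 4 called genes with the highest mean TPM were named and, where fewer than 2 were called, up to 2 others. Further genes were named outside this rule with their values known. Among them were Ctsz, Ctsc, Cstb, Nlrc5, Cd14, Fcgr1, Mertk, Folr2, Marchf8, Batf3, Flt3, Xcr1, Siglech and Vpreb3. Some genes of these lists enter the counts, medians and sums but are not reported here by name. Replicates differed beyond sampling noise and were kept as separate libraries (chi-square per degree of freedom 2.75 between vehicle and 3.65 between LUP libraries).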

Additional observations from a re-analysis of the deposited data

How the results depend on the processing

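The numbers of class II genes called lower (3) were the same in all 11 alternatives. The number called higher, 5, became 3 with DESeq2 and 3 after quantile normalization, 2 with limma on log2(TPM + 1) and 2 on log2(TPM + 0.1), and ran from 2 to 5 when 1 library was left out. Calls of all genes that were higher, 3621, became 1935 and 1920 with the 2 limma fits on TPM, which tested 12059 genes; the cause was not tested. Of 101 values of single class II genes under alternatives, 90 kept direction and side of the threshold, 11 lost the call (H2-Ab1, H2-DMb1 and H2-Oa, given above) and 0 changed sign. H2-Aa ran from -0.77 to -0.61, H2-Eb1 from -1.04 to -0.80, Cd74 from -0.32 to -0.21, H2-DMa from 0.54 to 0.68 and Ifi30 from 0.22 to 0.40. With a replicate block, 5 class II genes were higher and 3 lower, and the correlation of same-numbered libraries' deviations was -0.066, so the numbers were not taken to pair the libraries. Of 440 counts over lists, 402 stayed within 1.5 times. The filter of at least 5 TPM removed H2-DMb2, H2-Oa and Ciita, limma on TPM could not test H2-DMb2 and H2-Oa, and H2-Oa fell below the filter without either LUP library. Ratios within a library do not depend on these settings.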
